A study of Homo sapiens with 4 samples.

Results

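The genes of programmed cell death described here are the BCL2 family, the death receptors, the caspases and the proteins that work between them. They were chosen by gene symbol, from a list of 42 names in 9 roles, and all 42 were found among the 55765 symbols of the count table. The cells were SK-N-BE(2)C, a clone of an established human neuroblastoma line with amplified MYCN. The ATRA group received all-trans retinoic acid (ATRA) at 10 µM for 144 h; this ligand of the nuclear retinoic acid receptors drives neuroblastoma cells to differentiate. The ethanol group was kept for the same 144 h with the solvent alone. Each group had 2 libraries of ribosome-depleted total RNA, and the labels do not tell separate cultures from repeat libraries. Each p-value therefore rests on a spread between libraries that may be technical.

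Cells can start apoptosis by a mitochondrial and by a receptor route. In the mitochondrial route, BH3-only proteins relieve the effectors BAX and BAK from their anti-apoptotic relatives, the effectors open the outer membrane, and released cytochrome c assembles APAF1 and caspase 9 into the apoptosome. In the receptor route, ligands of the TNF family cluster death receptors, which recruit FADD and caspase 8, with the caspase-8-like protein c-FLIP as brake. Both routes end in executioner caspases, which the inhibitor of apoptosis proteins hold back. Many neuroblastoma lines depend on BCL2 or MCL1 for survival, and caspase 8 is often silenced in tumours with amplified MYCN.

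Library totals lay between 12850462 and 19883465 counts, and the members took between 0.147% and 0.194% of them. The retinoid target RARB marked the treatment, with 34.4 and 66.9 CPM, the counts scaled to a common library size, in ATRA libraries against 1.54 and 1.78 CPM in ethanol libraries (log2 fold change 4.92 ± 0.46, adjusted p 0.0319, edgeR quasi-likelihood). The libraries also parted by the number in their titles, where a title with no number is called 1 here, with mitochondrial ribosomal RNA at 2.49% of counts in ATRA 1 and 5.96% in ethanol 1 but 0.130% in ATRA 2 and 0.0291% in ethanol 2. Differences within each number are therefore given below, as log2 CPM with a prior count of 2. Adrenergic neuroblastoma markers summed to between 4820 and 5516 CPM with ATRA and between 6182 and 6433 CPM with ethanol, with 0 of 11 called. MYCN was part of the lower sum, with 2319 and 1778 CPM with ATRA against 3739 and 2910 CPM with ethanol. The other 10 summed to 2501 and 3738 CPM with ATRA and to 2694 and 3272 CPM with ethanol, which overlap. Among them STMN2 ran higher, with 751 and 2031 CPM with ATRA against 544 and 1087 CPM with ethanol. Of the 11, 9 were fitted lower and 2 higher. Both ATRA libraries lay below both ethanol libraries for 6 (54.55%) and above them for 1. The shares of all genes tested were 21.7% and 23.8%. At an unadjusted p under 0.05 (edgeR quasi-likelihood), 1 of the 11 was higher and 2 were lower. Mesenchymal markers summed to between 813 and 877 CPM with ATRA and between 68.7 and 109.6 CPM with ethanol. Of 5 tested members, 2 were called higher, FN1 and VIM (edgeR quasi-likelihood, adjusted p under 0.05), beside 0.698% of all genes called. SNAI2 and COL1A1 were higher at an unadjusted p under 0.05 in that fit, and CD44 was at log2 -0.07 ± 0.61. PRRX1 had at most 7 reads in any library and YAP1 at most 27, and neither was tested. The part of these marker differences in the values below was not tested, and in such bulk libraries a change in the share of a cell type and a change in RNA per cell cannot be told apart. Markers of blood cells and endothelium stayed near 0, with summed levels of at most 1.56 and 1.02 CPM in any library and CD68 at 0; epithelial markers summed to between 8.81 and 14.6 CPM with ATRA and between 5.55 and 6.39 CPM with ethanol.

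No member passed the test of the treatment group alone, so the differences that follow are values and not calls. The death receptors TNFRSF10B, TNFRSF21 and TNFRSF1A were higher in each ATRA library than in either ethanol library, as were 23.8% of all genes tested. The same held for caspases 8, 9 and 10, c-FLIP, the effector BOK and BCL2 itself. It also held for the survival genes MCL1, BCL2L2, XIAP and BIRC2, and for RIPK1, BMF, BNIP3L and BCL2L13. Log2 fold changes of all these members ran from 0.22 for MCL1 to 2.74 for TNFRSF10B. FAS and CASP6 passed the filter on low counts through the ATRA libraries alone and so had to differ. The ATRA and ethanol groups overlapped for BAX and BAK1, for 7 of 8 BH3-only genes and for 3 of 4 apoptosome and mitochondrial factors. Over all genes tested, they overlapped for about 10300 of 18900.

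Of the 42 members, 37 passed the filter on low counts and 5 did not. Among those 37, 0 were called (edgeR quasi-likelihood, Benjamini-Hochberg adjustment over 18900 genes, threshold 0.05), in a comparison that called 0.698% of all genes. At an unadjusted p under 0.05, 8 members were higher and 0 lower with ATRA, which is 21.6% of the members against 9.43% of all genes for higher and 6.49% for lower. FAS and CASP6 passed the filter through the ATRA libraries alone and so had to differ; among the 35 members that passed in both groups the count was 6, or 17.1%, beside 7.82% of all such genes. The median log2 fold change was 0.42 over the 37 members and 0.011 over all genes tested. Both ATRA libraries lay above both ethanol libraries for 19 members, or 51.4%, and below them for 2, or 5.41%. The corresponding shares of all genes were 23.8% and 21.7%. The 19 include FAS and CASP6, which had to differ. These counts describe the list and were not tested.

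The calls depended on the fit. DESeq2 called 4 members, all higher (BCL2, BOK, TNFRSF10B and CASP6), where 4.03% of genes were called higher, and limma-voom called 0, where it called 0.265%. Without the filter on low counts, edgeR called 7 members, all higher, and 3.02% of genes higher. Other scalings called 0 members, with 0.725% of genes called under DESeq2 size factors, 0.730% under upper quartile factors and 0.624% under library size alone. Fits that leave out a library called 4 members without ATRA 1, 5 without ATRA 2, 3 without ethanol 1 and 4 without ethanol 2, all higher, where 3.08%, 4.05%, 2.68% and 3.98% of genes were called higher. BOK and TNFRSF10B were the members called in all 4 of those fits, which assume that the lone library of a group varies like the other group's libraries.

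**Figure D1:**
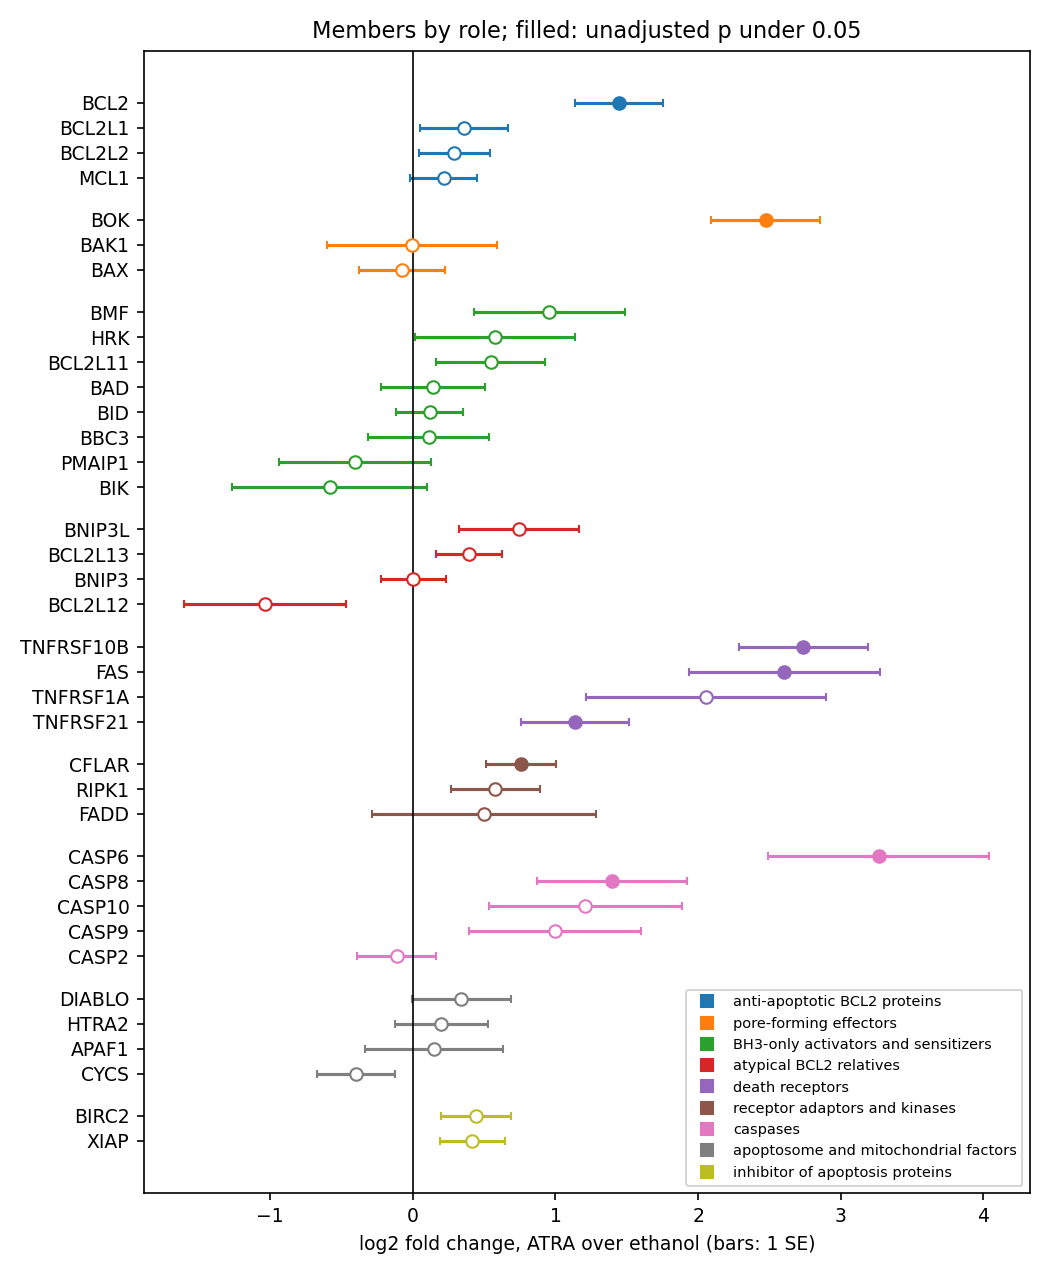
Log2 fold change of ATRA over ethanol (x axis, bars of 1 SE from the edgeR fit, 2 libraries per group) for the 37 members tested, grouped and coloured by role, with filled points for an unadjusted p under 0.05. CASP6 at 3.27, TNFRSF10B at 2.74, FAS at 2.61 and BOK at 2.47 lie farthest to the right, and BCL2L12 at -1.04 farthest to the left.

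Of the 33 members with a promoter entry, CASP6, FAS and BOK had the largest log2 fold changes, and their promoters, chosen after the values were seen, are shown as the start regions of an executioner caspase, a death receptor and an effector. Each runs 5′ to 3′ on the gene's strand, from 250 bases before the annotated start to 50 after it, from RefSeq (GRCh38.p14). BOK lies at chr2:241558495-241558794 on the plus strand, FAS at chr10:88990548-88990847 on the plus strand and CASP6 at chr4:109703396-109703695 on the minus strand. Capitals mark each match, on either strand, to the GC box GGGCGG, the retinoid receptor half-site AGGTCA or the E-box CACGTG; all capitals here are GC boxes.
BOK: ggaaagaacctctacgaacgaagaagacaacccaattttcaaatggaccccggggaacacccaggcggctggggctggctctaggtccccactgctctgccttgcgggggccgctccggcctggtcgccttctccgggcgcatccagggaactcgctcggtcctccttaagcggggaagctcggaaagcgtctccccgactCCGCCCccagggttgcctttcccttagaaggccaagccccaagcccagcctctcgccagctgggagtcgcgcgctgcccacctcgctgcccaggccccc
FAS: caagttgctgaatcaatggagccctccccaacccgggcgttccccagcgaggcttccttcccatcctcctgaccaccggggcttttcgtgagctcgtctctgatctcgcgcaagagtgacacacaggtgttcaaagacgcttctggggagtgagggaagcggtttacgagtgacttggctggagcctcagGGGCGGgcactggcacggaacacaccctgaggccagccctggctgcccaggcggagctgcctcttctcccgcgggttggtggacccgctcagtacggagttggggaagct
CASP6: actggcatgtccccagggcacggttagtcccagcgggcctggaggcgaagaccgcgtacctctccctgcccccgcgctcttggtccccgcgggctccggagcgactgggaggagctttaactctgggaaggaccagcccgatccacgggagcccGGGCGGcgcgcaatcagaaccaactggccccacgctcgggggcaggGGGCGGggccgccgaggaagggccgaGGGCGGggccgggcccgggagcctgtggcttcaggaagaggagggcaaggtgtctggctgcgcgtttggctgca
BOK and FAS each held 1 GC box and CASP6 held 3. The half-site was found in 2 of the 33 member promoters, BCL2L13 and XIAP, and in 13.9% of 27305 promoters of the same length. The direct repeat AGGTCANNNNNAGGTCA, with 5 bases between half-sites, was in 0 member promoters and in 1 of the 27305 promoters. GC boxes were in 24 member promoters, or 72.7%, against 44.6% of all, in a set whose median GC content was 66.3% against 58.3%. The E-box was in 5 of 33 member promoters (BAX, BBC3, BNIP3, DIABLO and TNFRSF21), or 15.2%, against 7.43% of all; BAX held 4 copies. A match describes the letters of this window and does not show binding.

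The anti-apoptotic BCL2 proteins hold effectors and BH3-only proteins in check at the mitochondrial membrane. BCL2, the founding member, had 144 and 225 CPM in ATRA libraries against 75.0 and 60.8 CPM in ethanol libraries, with no overlap between groups. Its log2 fold change was 1.44 ± 0.31 (SE; adjusted p 0.101, edgeR quasi-likelihood), with differences of 0.94 and 1.88 within library numbers 1 and 2. It was called without ATRA 1 (adjusted p 0.00252) and without ethanol 1 (0.0329), but not without ATRA 2 (0.0851) or ethanol 2 (0.0961) in edgeR fits. The other detected members had smaller differences, of at most 0.36. MCL1, a short-lived survival protein, had 295 and 299 CPM with ATRA against 240 and 271 CPM with ethanol (log2 0.22 ± 0.23). BCL2L1, which encodes BCL-XL, was at 0.36 ± 0.31 and overlapped between groups, and BCL2L2, which encodes BCL-W, was at 0.29 ± 0.25. On the opposite strand ABALON covers 43.0% of the BCL2L1 exon length, and on the same strand the readthrough gene BCL2L2-PABPN1 covers 19.4% of that of BCL2L2, so both counts are uncertain. BCL2A1 had 0 reads in all 4 libraries, where 3 reads would be between 0.149 and 0.231 CPM.

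Per kilobase of exon, MCL1 led this role in every library. It held 71.1% and 63.6% of the role's summed CPM per kilobase in ATRA libraries and 73.0% and 76.2% in ethanol libraries. BCL2 held 12.9% and 17.8% with ATRA against 8.47% and 6.35% with ethanol. BCL2 ranked above BCL2L1 and BCL2L2 per kilobase in both ATRA libraries and below both in the ethanol libraries. These shares rest on exon lengths of a later annotation than that of the counts.

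The effectors form the pore of the outer mitochondrial membrane. BOK, an effector kept low by degradation in resting cells, had 28.4 and 17.7 CPM in ATRA libraries against 4.23 and 4.06 CPM in ethanol libraries. Both ATRA libraries lay above both ethanol libraries, with a log2 fold change of 2.47 ± 0.38 (adjusted p 0.0591, edgeR quasi-likelihood; 2.70 and 2.10 within numbers). Over 10 alternatives its adjusted p ran from 1.23e-05 to 0.0763 (edgeR, DESeq2 and limma-voom), and it was called in 6. BAX, which moves to mitochondria when activated, had 27.0 and 19.0 CPM with ATRA against 25.8 and 22.7 CPM with ethanol (-0.08 ± 0.30). BAK1 had 30.4 and 9.51 CPM with ATRA against 25.9 and 14.1 CPM with ethanol, so that its high libraries were those numbered 1 in both groups. Per kilobase, BOK held 30.2% and 35.9% of the effectors' summed level with ATRA and 6.72% and 8.99% with ethanol. The opposite-strand gene BOK-AS1, which shares exon sequence with BOK, had at most 3 reads in any library.

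BH3-only proteins carry stress signals to the rest of the family. None of the 8 reached an unadjusted p under 0.05. BMF, which is released from the cytoskeleton, had 6.57 and 5.20 CPM with ATRA against 2.00 and 4.01 CPM with ethanol (log2 0.96 ± 0.53, adjusted p 0.469, edgeR quasi-likelihood), and was the member of the role with no overlap between groups. BCL2L11, which encodes BIM, had 25.9 and 15.4 CPM with ATRA against 11.7 and 16.5 CPM with ethanol (0.55 ± 0.38). Its difference was 1.13 within number 1 and -0.10 within number 2. The neuronal BH3-only gene HRK was at 0.58 ± 0.56. BID, which caspase 8 cleaves to link the receptor route to mitochondria, was on average the role's highest level per kilobase, with 67.9 and 63.3 CPM in ATRA libraries and 65.0 and 55.9 CPM in ethanol libraries. BID at 0.12 ± 0.24, BAD at 0.14 ± 0.36 and BBC3, which encodes PUMA, at 0.11 ± 0.42 lay within their spread. On the opposite strand GPR137 covers 23.7% of the BAD exon length, so that count is uncertain. PMAIP1, which encodes NOXA, the partner of MCL1, was at -0.40 ± 0.53 and BIK at -0.58 ± 0.68.

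None of the 4 atypical relatives reached an unadjusted p under 0.05. BNIP3, a mitophagy receptor induced by hypoxia, had 62.2 and 62.4 CPM with ATRA against 61.2 and 63.0 CPM with ethanol (log2 0.0039 ± 0.23). Its relative BNIP3L, also a mitophagy receptor, had 60.0 and 82.9 CPM with ATRA against 26.4 and 58.7 CPM with ethanol (log2 0.75 ± 0.42), with a narrow gap between the groups; the log2 fold change was 0.24 without ethanol 1 and 1.45 without ethanol 2. BCL2L13, also a mitophagy receptor and the role's highest level per kilobase, had 144 and 155 CPM with ATRA against 110 and 117 CPM with ethanol (0.39 ± 0.23). BCL2L12 had 5.55 and 2.09 CPM with ATRA against 7.70 and 7.98 CPM with ethanol (-1.04 ± 0.57, adjusted p 0.459, edgeR quasi-likelihood). Its differences within the numbers were -0.46 and -1.87. BCL2L12 shares 33.1% of its exon length with IRF3 on the opposite strand, which was at -0.09 ± 0.30. The annotation also names 39 BNIP3 pseudogenes, whose reads the counting could split.

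**Figure D2:**
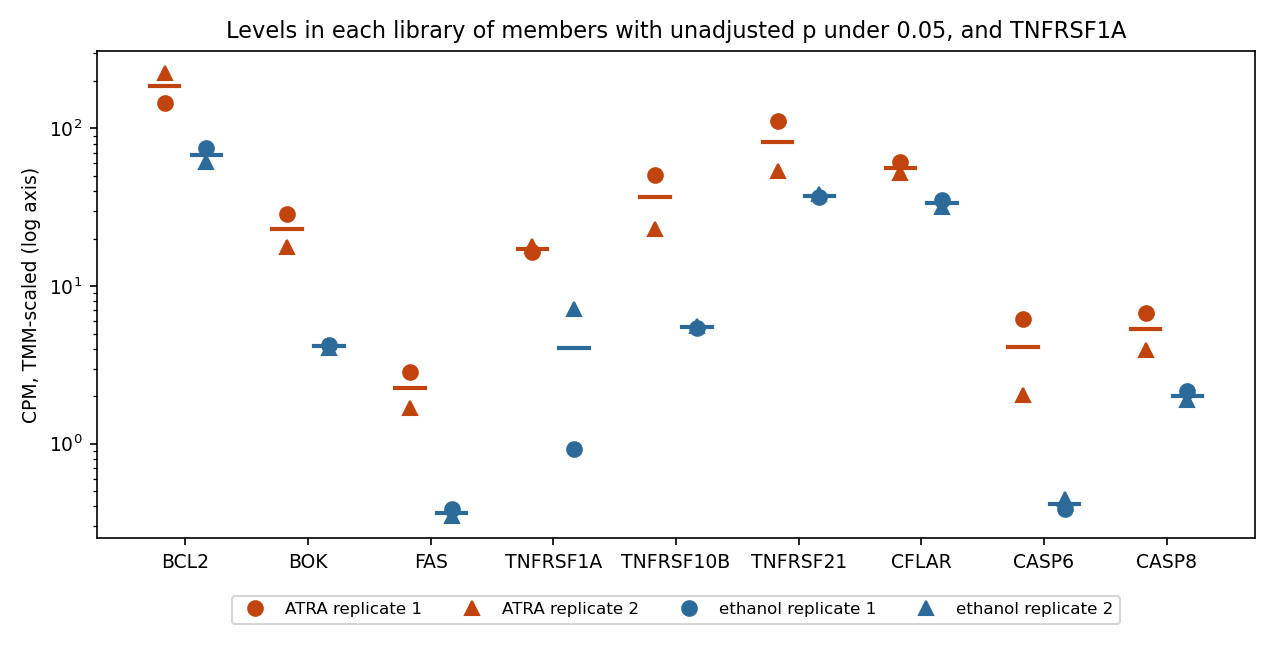
CPM on TMM-scaled library sizes (log axis) in each library for the 8 members with an unadjusted p under 0.05 and for TNFRSF1A; circles are replicate 1, triangles replicate 2 and bars the group means. In all 9 genes the ATRA points lie above the ethanol points, and TNFRSF1A in ethanol is spread from 0.924 to 7.18 CPM.

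Death receptors carry an intracellular death domain that recruits adaptors. TNFRSF10B, TNFRSF21 and TNFRSF1A, which passed the filter in both groups, lay higher in each ATRA library than in either ethanol library, as did 23.8% of all genes tested. TNFRSF10B, which encodes the TRAIL receptor DR5, had 50.3 and 22.9 CPM in ATRA libraries against 5.39 and 5.55 CPM in ethanol libraries. This is a log2 fold change of 2.74 ± 0.45 (adjusted p 0.0657, edgeR quasi-likelihood), with 3.18 and 2.03 within numbers. The ATRA libraries were farther apart than the ethanol libraries, and without each library in turn the log2 fold change lay between 2.06 and 3.19. RHOBTB2, which overlaps 1.3% of its exon length on the opposite strand, was at -0.46 ± 0.25.

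TNFRSF21, which encodes DR6, a receptor of developing neurons, was the most abundant receptor per kilobase. It had 111 and 53.5 CPM with ATRA against 36.6 and 38.4 CPM with ethanol (log2 1.14 ± 0.38, adjusted p 0.227, edgeR quasi-likelihood). ATRA 1 was high and ATRA 2 closer to the ethanol libraries, so that the difference was 1.60 within number 1 and 0.48 within number 2. Without ATRA 1 it was 0.51 and without ATRA 2 it was 1.56, with adjusted p of 0.831 and 0.00248 (edgeR). TNFRSF1A, the main TNF receptor, had 16.4 and 17.9 CPM with ATRA against 0.924 and 7.18 CPM with ethanol (2.06 ± 0.84, adjusted p 0.314, edgeR quasi-likelihood). Its ATRA libraries were close to each other while the ethanol libraries were far apart, and the difference was 1.21 without ethanol 1 and 4.22 without ethanol 2, with adjusted p of 0.328 and 5.34e-06 (edgeR).

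FAS, the CD95 receptor, was scarce and passed the filter through the ATRA libraries alone. It had 42 and 28 reads in ATRA libraries against 5 and 7 reads in ethanol libraries, or 2.84 and 1.68 CPM with ATRA against 0.385 and 0.347 CPM with ethanol. The log2 fold change was 2.61 ± 0.67 (adjusted p 0.138, edgeR quasi-likelihood; 2.47 and 2.01 within numbers). FAS shares 8.9% of its exon length with ACTA2 on the opposite strand. ACTA2, a smooth muscle actin, had 51.2 and 11.6 CPM with ATRA against 1.85 and 3.47 CPM with ethanol, and because the strand setting of the counting is not given, its part in the FAS reads was not tested. TNFRSF10A, which encodes DR4, had 7 and 6 reads with ATRA against 3 and 9 with ethanol, and the decoy receptor gene TNFRSF10D had 8 and 18 reads with ATRA against 6 and 5 with ethanol; both failed the filter.

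Adaptors and kinases decide what a bound receptor sets off. CFLAR, which encodes c-FLIP, had 60.8 and 52.1 CPM in ATRA libraries against 35.0 and 31.9 CPM in ethanol libraries. Both groups were tight, and the log2 fold change of 0.76 ± 0.24 (adjusted p 0.209, edgeR quasi-likelihood) was nearly the same within the numbers, at 0.79 and 0.71. RIPK1, a kinase of survival and death signals, had 15.5 and 19.8 CPM with ATRA against 12.1 and 11.6 CPM with ethanol (0.58 ± 0.31). FADD, the adaptor of FAS and the TRAIL receptors and on average the role's highest level per kilobase, had 21.5 and 4.79 CPM with ATRA against 13.6 and 5.15 CPM with ethanol (0.50 ± 0.79), high in the libraries numbered 1 of both groups; AP000879.1 covers 54.9% of its exon length on the opposite strand. RIPK3, the kinase of necroptosis, had 0 reads in all 4 libraries.

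Caspases are cysteine proteases made as inactive precursors. CASP6, an executioner with a role in axon loss, had 91 and 34 reads in ATRA libraries against 5 and 9 reads in ethanol libraries, or 6.16 and 2.03 CPM with ATRA against 0.385 and 0.446 CPM with ethanol. Like FAS, CASP6 passed the filter through the ATRA libraries alone and so had to differ between groups. Of its ATRA libraries, ATRA 1 was the higher. Its log2 fold change was 3.27 ± 0.78 (adjusted p 0.122, edgeR quasi-likelihood), the largest of the members, with 3.55 and 1.98 within numbers. Without each library in turn, the log2 fold change of CASP6 lay between 2.25 and 3.85 in edgeR fits. CCDC109B, an older symbol of MCUB, overlaps 5.4% of its exon length on the opposite strand and had between 3 and 20 reads per library.

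CASP8, the initiator of the receptor route, was low in both groups. It had 6.71 and 3.95 CPM with ATRA against 2.16 and 1.88 CPM with ethanol (log2 1.40 ± 0.53, adjusted p 0.275, edgeR quasi-likelihood). Its neighbour and relative CASP10 had 2.64 and 1.91 CPM with ATRA against 0.539 and 1.39 CPM with ethanol (1.21 ± 0.68), and CASP9, the apoptosome's initiator, had 3.45 and 5.08 CPM with ATRA against 1.31 and 2.92 CPM with ethanol (1.00 ± 0.60). These 3 lay higher in each ATRA library than in either ethanol library, as did 23.8% of all genes tested. With 2 libraries each, the unadjusted p was under 0.05 only for CASP8 (edgeR quasi-likelihood). Both other values moved with the ethanol libraries: CASP10 was at 0.67 without ethanol 1 and 2.08 without ethanol 2, and CASP9 at 0.50 without ethanol 1 and 1.72 without ethanol 2. CASP2, an initiator linked to DNA damage, was the role's most abundant gene per kilobase, with 35.1 and 45.6 CPM with ATRA against 38.0 and 49.4 CPM with ethanol (-0.11 ± 0.28). CASP2 held 46.2% and 67.0% of the caspases' summed CPM per kilobase in ATRA libraries against 85.3% and 83.4% in ethanol libraries, while CASP6 held 33.5% and 12.3% with ATRA against 3.57% and 3.11% with ethanol.

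**Figure D3:**
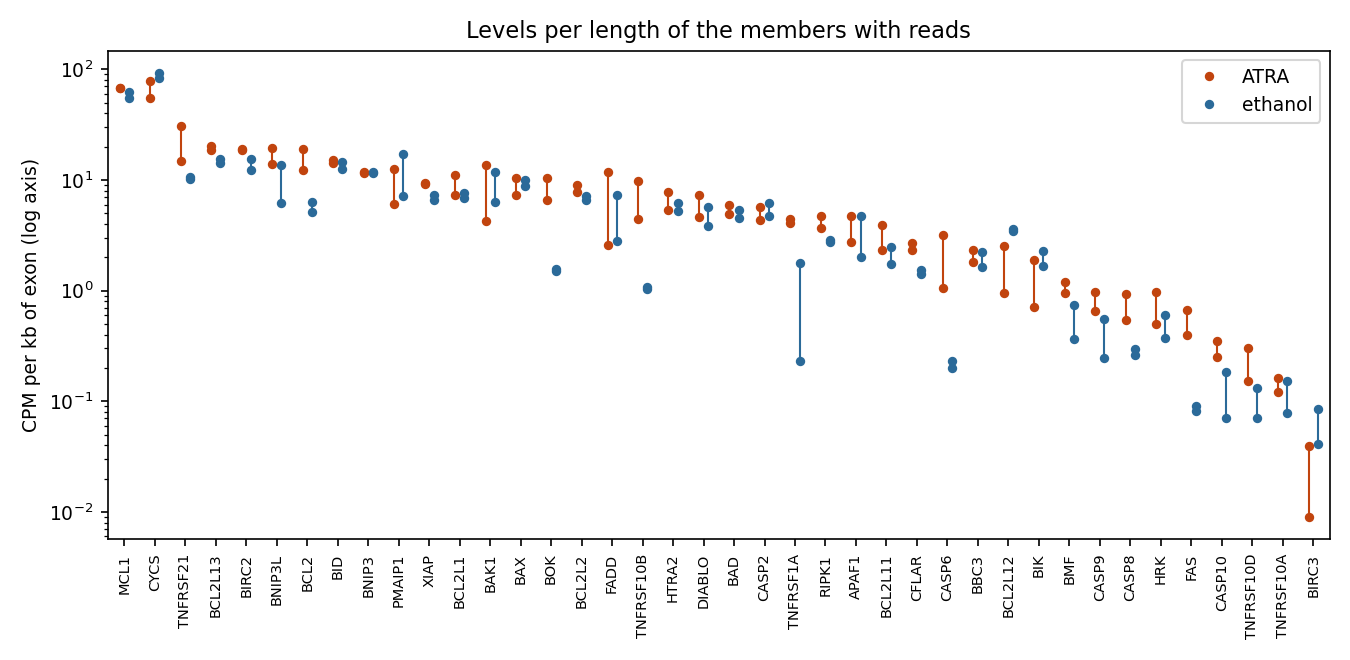
CPM per kilobase of annotated exon (log axis) for the 40 members with at least 1 read, ordered by the ATRA mean; points are libraries and lines join the libraries of a group. MCL1 and CYCS stand at the top in both groups, and FAS, CASP10, TNFRSF10D, TNFRSF10A and BIRC3 have the lowest ATRA means.

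None of the 4 apoptosome and mitochondrial factors reached an unadjusted p under 0.05. CYCS, which encodes cytochrome c, had 247 and 350 CPM in ATRA libraries against 375 and 413 CPM in ethanol libraries. It was lower in each ATRA library, at log2 -0.40 ± 0.27 (adjusted p 0.577, edgeR quasi-likelihood), and the annotation names 40 CYCS pseudogenes, so its counts are uncertain. APAF1, the scaffold of the apoptosome, had 21.8 and 37.5 CPM with ATRA against 15.9 and 37.6 CPM with ethanol (0.15 ± 0.48). DIABLO and HTRA2, which encode antagonists of the inhibitor of apoptosis proteins, were at 0.34 ± 0.35 and 0.20 ± 0.32, and both overlapped between groups. On the same strand, a second annotated entry under the symbol DIABLO covers 29.6% of the DIABLO exon length, and AC048338.1 also overlaps it. On the opposite strand, B3GNT4 covers 14.3% of that length, and other genes cover up to 20.8% of that of HTRA2. Both counts are therefore uncertain. Of the inhibitors themselves, ubiquitin ligases that bind caspases or receptor complexes, 2 were tested. Both lay higher in each ATRA library than in either ethanol library, as did 23.8% of all genes tested. Neither reached an unadjusted p under 0.05 (edgeR quasi-likelihood). XIAP, which binds caspases directly, had 84.4 and 82.3 CPM with ATRA against 59.1 and 65.7 CPM with ethanol (0.42 ± 0.23), and BIRC2, the role's highest level per kilobase, had 86.2 and 83.9 CPM with ATRA against 55.6 and 69.7 CPM with ethanol (0.44 ± 0.24). BIRC3, a target of NF-kappaB, had 1 and 5 reads with ATRA against 4 and 13 with ethanol and failed the filter.

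Per kilobase, MCL1 and CYCS ranked 1 and 2 with ATRA and 2 and 1 with ethanol. The largest moves in rank were those of BOK, ranked 15 with ATRA and 27 with ethanol, TNFRSF10B, ranked 18 with ATRA and 29 with ethanol, BCL2L12, ranked 30 with ATRA and 21 with ethanol, and BCL2, ranked 7 with ATRA and 15 with ethanol.

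**Figure D4:**
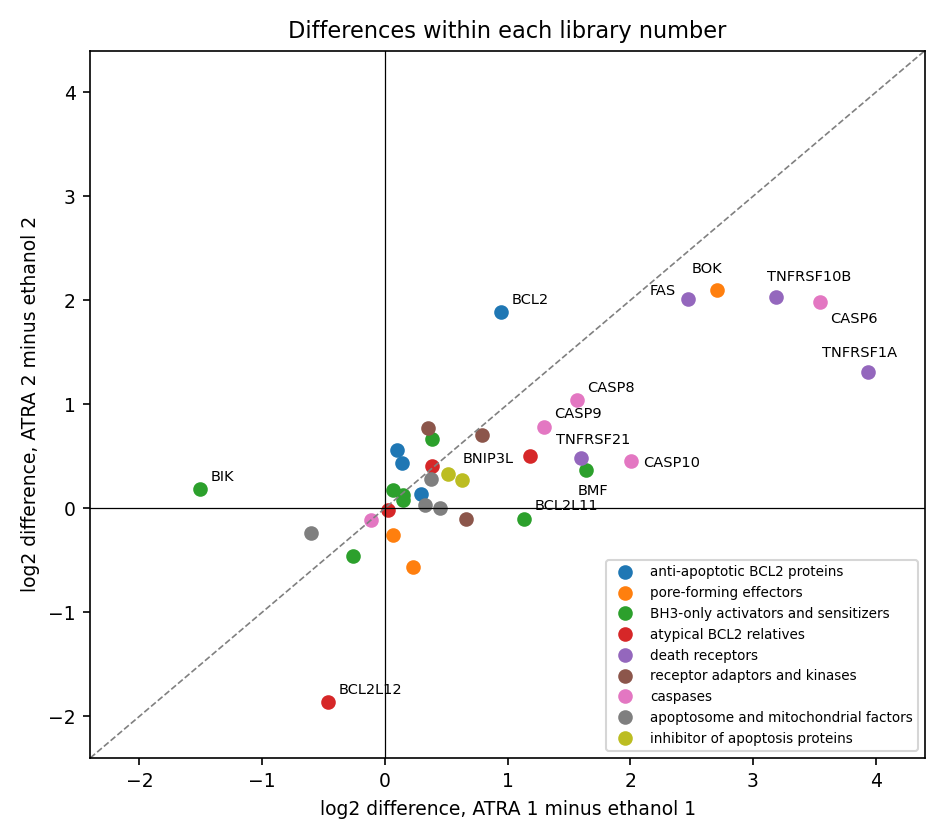
Log2 difference of ATRA 1 minus ethanol 1 (x axis) and of ATRA 2 minus ethanol 2 (y axis) for the 37 members tested, coloured by role, with the line of equality dashed. The difference was positive within both numbers for 26 members and negative within both for 4; TNFRSF1A, at 3.94 and 1.31, lies far below the line and BCL2, at 0.94 and 1.88, above it.

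Some members followed the library number more than the treatment. For 14 of the 37 members, or 37.8%, the mean difference between numbers 1 and 2 was larger than that between ATRA and ethanol, against 49.7% of all genes tested. Death receptors had 0 of 4 such members and the mitochondrial factors 3 of 4. FADD was 2.14 higher on the log2 scale in ATRA 1 than in ATRA 2, and 1.38 higher in ethanol 1 than in ethanol 2. PMAIP1 ran the other way, with 13.5 and 28.1 CPM in ATRA 1 and 2 against 16.2 and 38.7 CPM in ethanol 1 and 2.

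**Figure D5:**
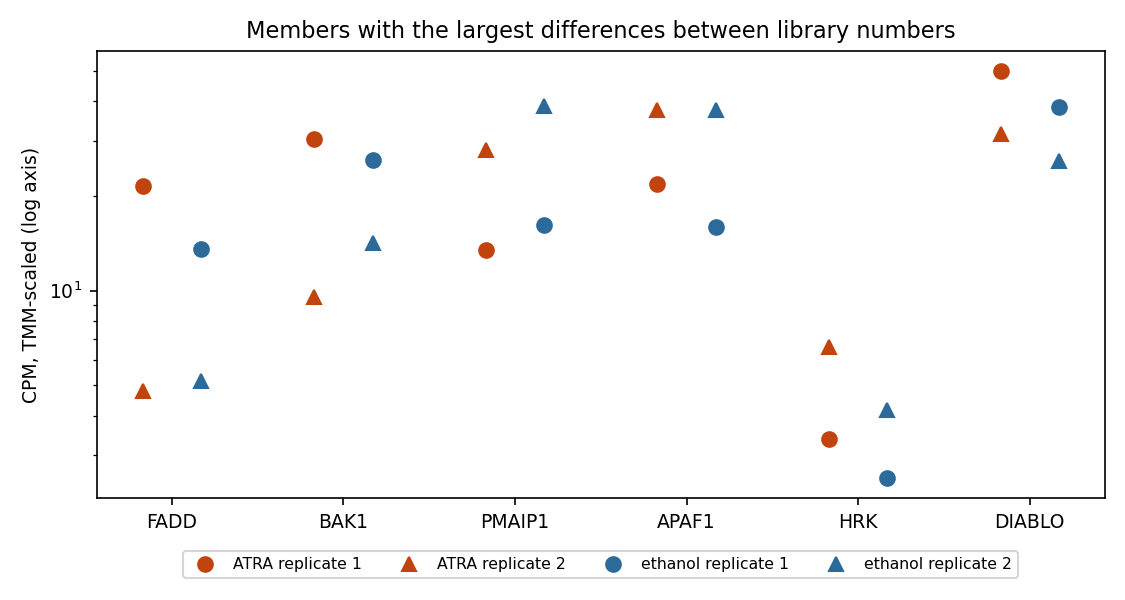
CPM on TMM-scaled library sizes (log axis) in each library for the 6 members with the largest mean difference between library numbers among those where it exceeded the treatment difference; circles are replicate 1 and triangles replicate 2. FADD, BAK1 and DIABLO were higher in the libraries numbered 1 and PMAIP1, APAF1 and HRK in those numbered 2, in both groups.

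Among 5 lists of other cell death genes, edgeR called 0 of 73 tested genes, beside 0.698% of all genes. Limma-voom called 0, beside 0.265%. DESeq2 called 6, with NGFR, NLRP1, PANX1 and TNFRSF12A higher and FAIM2 and MLKL lower, and 1260 of 20396 genes in all. At an unadjusted p under 0.05 (edgeR quasi-likelihood), 5 of the 73 were higher (6.85%) and 8 lower (11.0%). The shares of all genes were 9.43% for higher and 6.49% for lower. The median log2 fold change of the 73 was -0.00063. The lists are short, and their counts at that level describe them without a test. Of 9 other caspases and caspase substrates, 2 were higher and 0 lower at that level: the channel gene PANX1 was at log2 1.51 ± 0.32 and CASP4, an inflammatory caspase, at 1.41 ± 0.52. Of 18 ligands, decoys and receptor adaptors, 2 were higher and 3 lower. NGFR, the neurotrophin receptor p75 with a death domain, had 20.3 and 36.6 CPM with ATRA against 0.616 and 3.07 CPM with ethanol (3.90 ± 0.76, adjusted p 0.0851, edgeR quasi-likelihood). FAIM2, an inhibitor of FAS signalling in neurons, had 9.42 and 24.3 CPM with ATRA against 51.8 and 111 CPM with ethanol (-2.27 ± 0.57, adjusted p 0.134, edgeR quasi-likelihood). Of 19 other inhibitors and mitochondrial death genes, 0 were higher and 3 lower at an unadjusted p under 0.05 (edgeR). BIRC5, which encodes survivin and is expressed in mitosis, was at -1.31 ± 0.38 and ENDOG, a mitochondrial nuclease, at -1.44 ± 0.46. Of 15 necroptosis and pyroptosis genes, 1 was higher and 1 lower: the inflammasome sensor NLRP1 was at 1.65 ± 0.34 and MLKL, the substrate of RIPK3 that breaks the plasma membrane, had 1.42 and 0.718 CPM with ATRA against 6.01 and 4.81 CPM with ethanol (-2.33 ± 0.59). Of 12 NF-kappaB genes, 0 were higher and 1 lower, and the inhibitors NFKBIA and NFKBIB were at -0.93 ± 0.26 and -0.58 ± 0.30.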

How the data were processed

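RNA of SK-N-BE(2)C cells was counted in 4 libraries, 2 with ATRA and 2 with ethanol. The authors deposited raw read counts per gene symbol; per the submitters' processing notes, STAR 2.5.2b, featureCounts 1.5.1 and build hg19 were named. What annotation and strand setting were used, and how shared reads were handled, is not given in the sources used here, so reads of overlapping, antisense and near-identical genes are uncertain.

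From these counts, edgeR 4.0.16 (R 4.3.3) fitted the treatment group alone, with 2 residual degrees of freedom, on the 18900 genes that passed filterByExpr (minimum count 10), with TMM scaling and a robust quasi-likelihood F test. P-values are two-sided and Benjamini-Hochberg adjusted over those genes. Each SE is the size of the log2 fold change over the root of its F. CPM values use TMM-scaled library sizes. Floors of 3 reads cover counting error only. DESeq2 1.42.0, limma 3.58.1, other scalings, no filter and fits without each library were alternatives, and limma's voom weights were used. Exon lengths, overlaps and pseudogenes came from GENCODE 29 and promoters from RefSeq, both GRCh38. The fit was also run on simulated counts with larger changes than most members had and no difference by library number. That run checks the code and not the calls here.

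The members, roles and lists were chosen with earlier results of these data known. Library values are given for members with an unadjusted p under 0.05 and for the highest per kilobase in each role, and other members were added after their values were seen. From each related list the members with the 2 smallest p are named. One further list is not reported here and enters only the counts of related genes called under each alternative.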

Additional observations from a re-analysis of the deposited data

How the results depend on the processing

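The count of genes called over the whole table, 132, became 1821 without the filter on low counts, 1260 with DESeq2, 50 with limma-voom and between 870 and 1442 without a library; the members called, 0, became 7, 4, 0 and between 3 and 5, and the related genes called, 0, became 11, 8, 0 and between 5 and 7. Other scalings called between 118 and 138 genes in all and 0 members. With the replicate block, which uses the number in the titles, edgeR called 4098 of 18900 genes, 2325 higher (12.3%) and 1773 lower. It called 8 of the 37 members tested (BCL2, BNIP3L, BOK, CASP6, CASP8, CFLAR, FAS and TNFRSF10B), all higher. Of 91 related genes tested, it called 22, with 11 higher and 11 lower. Deviations from the group means correlated at 0.638 between same-numbered libraries across genes, which are not independent replicates; with 2 libraries per group and no label that ties the numbers to a culture or day, the pairing was not used otherwise. Without a library, the log2 fold change of 16 of the 37 members kept its sign but moved by over 1.5 times, and that of 12 changed sign: BAX (-0.36 to 0.15), BAK1 (-1.07 to 0.60), BAD (-0.0048 to 0.26), HRK (-0.0039 to 1.00), BBC3 (-0.14 to 0.38), PMAIP1 (-1.05 to 0.38), BNIP3 (-0.063 to 0.040), FADD (-0.95 to 1.31), CASP2 (-0.34 to 0.11), APAF1 (-0.39 to 0.91), DIABLO (-0.029 to 0.63) and HTRA2 (-0.10 to 0.44). BAK1 was at 0.0017 with upper quartile factors, and BNIP3 at -0.013 with DESeq2 size factors, -0.040 with library size alone, -0.039 without the filter and -0.021 with DESeq2. The cause was not tested. No setting listed here called a member lower.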
